A study of Homo sapiens with 9 samples.

Results

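Cholesterol and fatty acid synthesis was followed through 32 genes, which encode the regulators and the enzymes of both routes and were chosen by their symbols. All 32 were found among the 13017 genes listed for sh1-*TUG1* cells and the 12953 genes listed for sh2-*TUG1* cells. They comprise 5 regulators and carriers of sterol, 7 enzymes of the mevalonate pathway, 11 enzymes from squalene synthesis to cholesterol, and 9 enzymes of fatty acid synthesis. The study asked how depletion of *TUG1*, a long noncoding RNA, alters the transcriptome of liver cancer cells. RNA-seq was done on HepG2, an established human liver cancer line grown in low-glucose DMEM with serum. Each of the 3 groups was a stable line made with a lentiviral vector, Tet-pLKO-Puro, from which doxycycline (DOX) induces a short hairpin RNA. Whether and for how long each group was given DOX before these libraries were made is not given in the sources used here, so the values below compare the lines as labelled. The hairpin of sh-Con was a control, and sh1-*TUG1* and sh2-*TUG1* each carried a different hairpin against *TUG1*. There were 3 libraries in each group, which the study's methods call technical replicates. The SD and the p-values below therefore measure the spread between libraries and may not cover the spread between cultures. Each hairpin was present in 1 line, so an effect of the hairpin and a property of the line cannot be told apart. *TUG1* itself was not analysed here, and the knockdown labels were not checked against it.

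Cells make cholesterol from acetyl-CoA by way of mevalonate, the isoprenoid farnesyl diphosphate, squalene and lanosterol. When sterol in the endoplasmic reticulum is low, the escort protein SCAP carries the transcription factors SREBP-1 and SREBP-2 to the Golgi, where they are cut and released to the nucleus, and INSIG proteins hold the complex back when sterol is plentiful. SREBP-2 mainly drives the genes of cholesterol synthesis, and SREBP-1c the genes that turn acetyl-CoA into fatty acids, a task in which the liver is especially active.

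The libraries held 33054291 to 39393293 counts over the listed genes, of which the 32 genes took 1.05% to 1.11%. For shared genes the control counts were identical in both tables, so both knockdown comparisons rest on the same 3 control libraries. All 11 of the hepatocyte markers looked for were listed, with a summed level of 18387 to 19289 CPM in sh-Con, 19212 to 20433 in sh1-*TUG1* and 16346 to 18364 in sh2-*TUG1*. Of 12 markers of blood, endothelial, stromal and other epithelial cells, 3 were listed (*CD68*, *PECAM1* and *EPCAM*), at a summed 220 to 241 CPM in sh-Con, 209 to 219 in sh1-*TUG1* and 197 to 213 in sh2-*TUG1*. *CD68*, a marker of macrophages, was lower in sh1-*TUG1* (log2 change −0.86, SE 0.080, adjusted p = 8.00e-05) and in sh2-*TUG1* (log2 change −1.61, SE 0.11, adjusted p = 6.98e-06). *EPCAM* was not called in sh1-*TUG1* (log2 change 0.11, SE 0.043, adjusted p = 0.0986) and was higher in sh2-*TUG1* (log2 change 0.16, SE 0.045, adjusted p = 0.0163), and *PECAM1* was called in neither (log2 change 0.056 and 0.12). The summed hepatocyte markers were also lower in sh2-*TUG1* than in the other lines, and the part of these shifts in the results below was not tested. CPM, the count relative to the TMM-scaled library size, measures a transcript's share of the RNA, and less RNA per cell of other genes cannot be told apart from more of the gene in question.

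Promoter windows from RefSeq (GRCh38.p14; 250 bases before to 50 after each start site) were matched by symbol for 28 of the 32 genes, the exceptions being *ACAT2*, *FDFT1*, *SQLE* and *FASN*. The letters TCACNCCAC, the core of the classical sterol regulatory element, were searched on both strands and occurred in 1 of the 28, *SREBF2*, against 1.39% of all 27305 genes. The letters CCAAT, the core bound by NF-Y, a factor known to act beside SREBPs, were also searched on both strands. They occurred in 22 of the 28 (78.6%), against 39.7% of all genes. In both searches all genes means every gene with a promoter window, listed in these cells or not. The share among the listed genes alone was not computed. The following stretches of 30 bases are shown because they belong to the gene for SREBP-2 and to the genes that moved most in each direction. Capitals mark the match, and ATTGG is CCAAT read on the other strand. The first and second are from *SREBF2*, at chr22:41832962-41832991 and chr22:41832987-41833016, beginning to match 133 and 106 bases before the start site, all on the plus strand like those that follow.
SREBF2: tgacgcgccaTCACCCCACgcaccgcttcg
SREBF2: cttcgctcgcccATTGGctgagatgagcct
The next 3 are from *SC5D* and *MVK*, which rose in sh2-*TUG1*, and from *TM7SF2*, which fell. They lie at chr11:121292703-121292732, chr12:109573736-109573765 and chr11:65111786-65111815.
SC5D: cgccggtcgctgATTGGctggccgctccag
MVK: tcgcgcgctctgATTGGctggcctgaagta
TM7SF2: ccccgagcgccgATTGGctggtgtgctggg
The last is from *SCD*, which fell in both lines, at chr10:100347035-100347064.
SCD: aattcccttcggCCAATgacgagccggagt
*MVK* and *SCD* have further CCAAT matches that are not printed. The letters after the printed match were much alike in *SC5D*, *MVK* and *TM7SF2*, although the first 2 genes rose and the third fell. In *MVK* this likeness belongs to the match picked for printing, and its other matches had other letters around them. The same first letters followed matches in further genes, among them *ELOVL5*, *IDI1* and *MSMO1*, which were not called in sh2-*TUG1*. The likeness is thus not particular to the genes printed. Whether the letters around a match go with the direction of change was not tested. A match describes the sequence and does not show that a factor is bound.

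In sh2-*TUG1* cells, 9 of the 18 enzymes of cholesterol synthesis rose by small amounts (50%, against 21.6% of all genes). Of the same enzymes 1 fell (5.56%, against 21.9%), whereas *SCD*, the main liver-type stearoyl-CoA desaturase, was reduced. In sh1-*TUG1* cells, 3 of the 18 cholesterol enzymes rose (16.7%, against 12.5%) and 2 fell (11.1%, against 12.3%), near the shares of all genes. There, 4 of the 9 fatty acid enzymes were reduced (44.4%, against 12.3%), namely *SCD*, *FADS1*, *FADS2* and *ELOVL6*. The calls of *SCD* and *FADS1* held under every alternative that tests for any difference, and those of *FADS2* and *ELOVL6* did not. At an adjusted p under 0.05 in edgeR's quasi-likelihood test, 5 of the 32 genes were higher in sh1-*TUG1* than in sh-Con (15.6%, against 12.5% of all genes tested) and 6 were lower (18.8%, against 12.3%). In sh2-*TUG1*, 11 were higher (34.4%, against 21.6%) and 3 were lower (9.38%, against 21.9%). The shares in sh1-*TUG1* were near those of all genes, and in sh2-*TUG1* more of the 32 were higher and fewer lower than among all genes. In either direction together, 34.4% of the 32 were called in sh1-*TUG1* (24.8% of all genes) and 43.8% in sh2-*TUG1* (43.5% of all genes), so in sh2-*TUG1* the share called was near that of all genes while its split between the directions was not. Scaling by library totals alone gave 6 higher and 2 lower in sh1-*TUG1*, and 10 higher and 5 lower in sh2-*TUG1*. The shares of all genes under that scaling were not computed, so these counts cannot be set against them. The changes were small. Under the study's definition of a DEG, which also asks for a fold change over 1.5, 0 of the 32 rose in sh1-*TUG1* (2.44% of all genes did) and 0 fell (2.52%). In sh2-*TUG1* 0 rose (4.35%) and 1 fell, *TM7SF2* (8.97%). On the log2 scale, the 32 changes had a median of 0.0022 in sh1-*TUG1*, where all genes had 0.0028, and of 0.093 in sh2-*TUG1*, where all genes had −0.0048. Of the 18 cholesterol enzymes, 3 rose (16.7%) and 2 fell (11.1%) in sh1-*TUG1* (median 0.018), and 9 rose (50%) and 1 fell (5.56%) in sh2-*TUG1* (median 0.15). Of the 9 fatty acid enzymes, 0 rose in either line, 4 fell in sh1-*TUG1* (44.4%, median −0.089) and 2 fell in sh2-*TUG1* (22.2%, median −0.086).

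**Figure D1:**
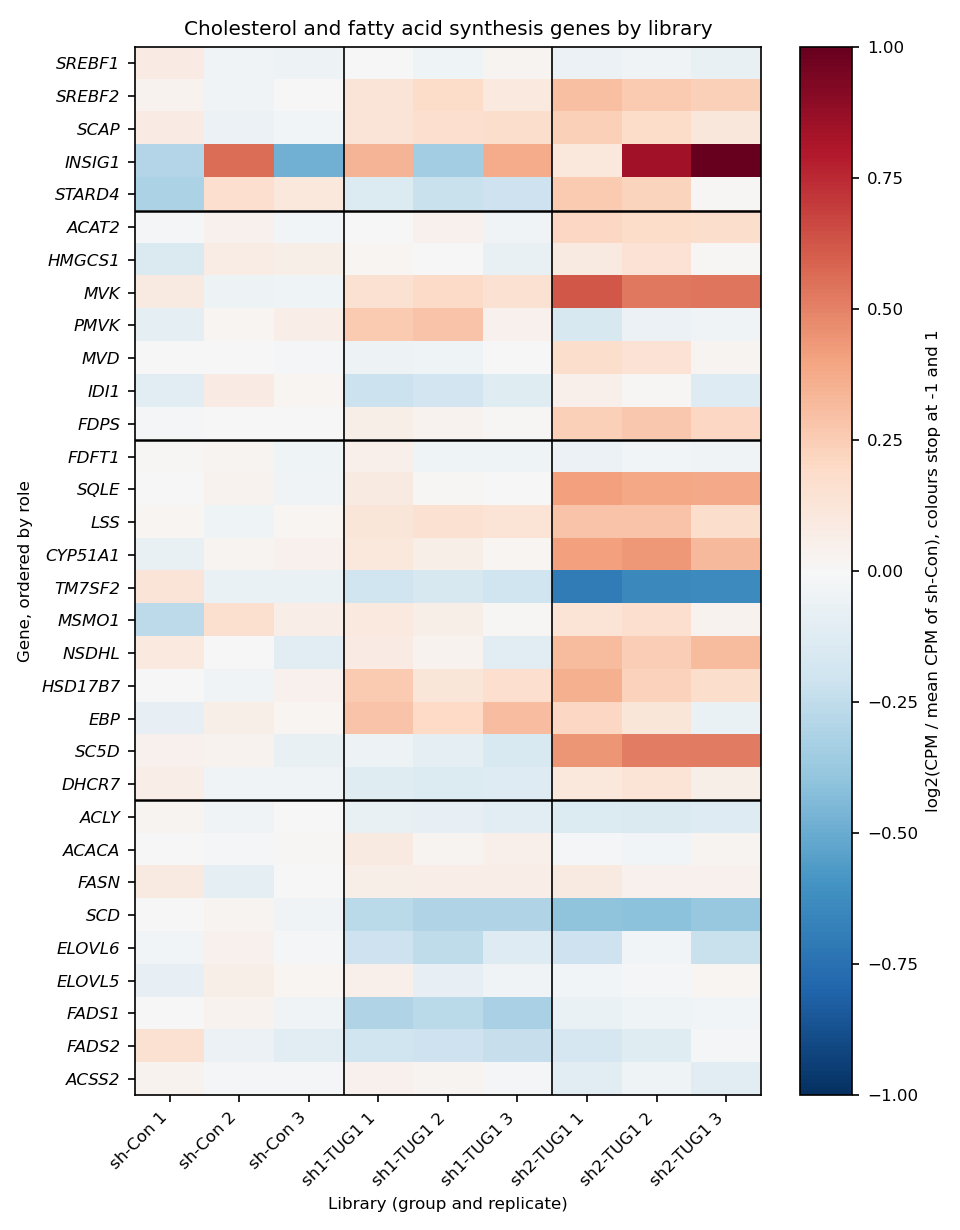
Heat map of the 32 genes (rows, by role: regulators, mevalonate pathway, squalene to cholesterol, fatty acid synthesis) in the 9 libraries (columns). Colour gives log2 of the CPM over the mean CPM of sh-Con, red above and blue below, and stops at −1 and 1. The sh2-*TUG1* columns are red for *MVK*, *SQLE*, *CYP51A1* and *SC5D* and blue for *TM7SF2*, *SCD* is blue in all 6 knockdown libraries, and *INSIG1* varies between libraries of every group.

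The summed level of the 18 cholesterol enzymes was 4610, 4806 and 4702 CPM in the sh-Con libraries, 4810, 4715 and 4641 in sh1-*TUG1*, and 5424, 5461 and 5211 in sh2-*TUG1*. All sh2-*TUG1* libraries lay above the other 6, and sh1-*TUG1* overlapped sh-Con. The 9 fatty acid enzymes summed to 5588, 5475 and 5389 CPM in sh-Con, 4941, 4874 and 4859 in sh1-*TUG1*, and 4719, 4696 and 4751 in sh2-*TUG1*. Here both knockdown lines lay below the controls, and *SCD* alone made up more than the other 8 together in sh-Con. Without *SCD* the other 8 summed to 2384 to 2545 CPM in sh-Con, 2396 to 2424 in sh1-*TUG1* and 2413 to 2426 in sh2-*TUG1*, and all groups overlapped. Per kilobase of exon, *SCD* was the most abundant of the 32 in sh-Con (565 ± 13.0 CPM per kb, SD, n = 3), followed by *DHCR7* (189 ± 7.61) and *FDPS* (188 ± 1.48), which did not differ beyond their spread. *INSIG1* was the lowest (0.353 ± 0.145), below *ELOVL6* (7.39 ± 0.181) and *ACACA* (10.2 ± 0.0888).

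Among the regulators, the gene for SREBP-2 and the gene for its escort were raised a little in both lines, and the gene for SREBP-1 was not called. Called higher were thus 2 of 5 in each line (40%, where all genes gave 12.5% for sh1-*TUG1* but 21.6% for sh2-*TUG1*). Called lower were 0. *SREBF2*, which encodes SREBP-2 (ENSG00000198911; chr22:41833079-41907308, GRCh38), was at 387, 369 and 379 CPM in sh-Con. It was at 414, 429 and 406 CPM in sh1-*TUG1* and at 466, 454 and 446 CPM in sh2-*TUG1*. The 3 groups did not overlap and stood in that order. Its log2(fold change) against sh-Con was 0.14 (SE 0.040, adjusted p = 0.0348) in sh1-*TUG1* and 0.26 (SE 0.043, adjusted p = 0.00103) in sh2-*TUG1*. *SREBF2* also hosts the microRNA gene MIR33A in an intron, which was not measured apart from it. *SCAP* (chr3:47413694-47477126) was at 145, 131 and 134 CPM in sh-Con, 149.8, 153 and 155 in sh1-*TUG1* and 162, 156 and 148 in sh2-*TUG1*. The control libraries lay below all knockdown libraries, and the knockdown lines overlapped. Its log2(fold change) was 0.16 (SE 0.048, adjusted p = 0.0391) in sh1-*TUG1* and 0.18 (SE 0.056, adjusted p = 0.0273) in sh2-*TUG1*. In sh1-*TUG1* the calls of *SREBF2* and *SCAP* were lost when any 1 library other than sh-Con replicate 1 was left out, with log2 fold changes of 0.11 to 0.16 for *SREBF2* and 0.12 to 0.20 for *SCAP* over all alternatives. Both were also lost with a block for replicate number. In sh2-*TUG1* the call of *SCAP* was lost without sh-Con replicate 2 or 3 or sh2-*TUG1* replicate 1 or 2, and with library totals alone (0.14 to 0.22 over all alternatives). There the call of *SREBF2* was kept.

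*SREBF1*, which encodes both forms of SREBP-1 and was counted as 1 gene, was at 113, 104 and 103 CPM in sh-Con (chr17:17810399-17837002). It was at 107, 104 and 109 CPM in sh1-*TUG1* and 103, 104 and 101 CPM in sh2-*TUG1*, and all groups overlapped. The 95% interval of its log2(fold change) was −0.12 to 0.11 in sh1-*TUG1* and −0.18 to 0.057 in sh2-*TUG1*. *INSIG1*, which holds back the SREBPs and is itself a known SREBP target, was barely detected, with 29 to 113 counts in a library. It was at 0.885, 1.60 and 0.777 CPM in sh-Con, 1.38, 0.855 and 1.41 in sh1-*TUG1* and 1.17, 1.95 and 2.93 in sh2-*TUG1*. The groups overlapped, and within each the highest library was far above the lowest. Its log2(fold change) of 0.90 (SE 0.39, adjusted p = 0.0869) in sh2-*TUG1* was the highest of the 32 but was not called, and the 95% interval ran from 0.032 to 1.76. It was called without sh-Con replicate 2 (1.28) or without sh2-*TUG1* replicate 1 (1.17), and was 0.52 without sh2-*TUG1* replicate 3. *STARD4*, a cytosolic sterol carrier, was at 99.3, 139 and 133 CPM in sh-Con, where replicate 1 stood low. It was at 112, 106 and 107 CPM in sh1-*TUG1* and 148, 144 and 125 CPM in sh2-*TUG1*, so that the knockdown lines lay on either side of the control mean and did not overlap. Neither line was called against sh-Con (log2 change −0.19 and 0.17), although sh1-*TUG1* was called without sh-Con replicate 1 (−0.33).

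In the mevalonate pathway, 3 of 7 enzymes rose in sh2-*TUG1* (42.9%, against 21.6% of all genes) and 0 fell (21.9% of all genes did). In sh1-*TUG1* 0 rose and 1 fell (14.3%), near the 12.5% and 12.3% of all genes for a list this short. *MVK* encodes mevalonate kinase, which makes the first phosphorylation of mevalonate (ENSG00000110921; chr12:109573255-109598117). Its values, like those of *FDPS*, *CYP51A1* and *FADS1* below, are given because of their size or pattern, after they had been seen. *MVK* was at 54.1, 49.1 and 49.4 CPM in sh-Con, 56.5, 58.0 and 56.6 in sh1-*TUG1* and 78.3, 73.2 and 73.8 in sh2-*TUG1*. The groups did not overlap, and the step from sh1-*TUG1* to sh2-*TUG1* was the larger one. The log2(fold change) was 0.56 (SE 0.060, adjusted p = 8.95e-05) in sh2-*TUG1*, a rise of 47.4%. In sh1-*TUG1* it was 0.16 (SE 0.056, adjusted p = 0.0560) and just missed the call, which it made without sh-Con replicate 1 (0.21) and under 2 other settings. *MVK* overlaps *MMAB* on the opposite strand, and the library kit and counting are not stated to use strand. *MMAB* was called in neither line (log2 change 0.16 in sh1-*TUG1*, −0.14 in sh2-*TUG1*).

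*FDPS*, which makes farnesyl diphosphate, was at 307, 311 and 311 CPM in sh-Con, 323, 317 and 313 in sh1-*TUG1* and 365, 374 and 357 in sh2-*TUG1*. It rose in sh2-*TUG1*, with a log2(fold change) of 0.24 (SE 0.042, adjusted p = 0.00176). In sh1-*TUG1* the value was 0.035 (SE 0.038, adjusted p = 0.547). *FDPS* has 8 annotated pseudogene copies elsewhere, and how reads shared with them were counted is not given in the sources used here. *ACAT2*, which makes acetoacetyl-CoA from acetyl-CoA, had values of 312 ± 7.86 CPM in sh-Con, 312 ± 8.58 in sh1-*TUG1* and 355 ± 3.94 in sh2-*TUG1* (mean ± SD, n = 3). It rose in sh2-*TUG1* (log2 change 0.18, SE 0.043, adjusted p = 0.00688) and not in sh1-*TUG1* (log2 change 0.00062). *HMGCS1*, the cytosolic HMG-CoA synthase and a textbook SREBP-2 target, was at 343, 399 and 394 CPM in sh-Con. It was at 385, 379.8 and 359.7 CPM in sh1-*TUG1* and 404, 419 and 382 CPM in sh2-*TUG1*. All 3 groups overlapped, and the 95% interval of the log2(fold change) was −0.15 to 0.12 in sh1-*TUG1* and −0.066 to 0.23 in sh2-*TUG1*. *IDI1*, which interconverts the 2 isoprenoid building blocks, fell in sh1-*TUG1* (log2 change −0.18, SE 0.057, adjusted p = 0.0494) and was not called in sh2-*TUG1* (log2 change −0.024). That fall lost its call when any 1 library other than sh-Con replicate 1 was left out, and with library totals alone (−0.23 to −0.14 over all alternatives). *PMVK* and *MVD*, which catalyse the next phosphorylation of mevalonate and its decarboxylation, were called in neither line. The change of *PMVK* on the log2 scale was 0.20 (sh1-*TUG1*) and −0.085 (sh2-*TUG1*), and that of *MVD* −0.028 and 0.11. *MVD* was called in sh2-*TUG1* without sh2-*TUG1* replicate 3 (0.16).

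Between squalene and cholesterol, 6 of 11 enzymes rose in sh2-*TUG1* (54.5%, against 21.6% of all genes) and 1 fell (9.09%, against 21.9%). In sh1-*TUG1* 3 rose (27.3%, against 12.5%) and 1 fell (9.09%, against 12.3%). *SQLE* encodes squalene epoxidase, a rate-controlling enzyme of the route (ENSG00000104549). It was at 456, 466 and 446 CPM in sh-Con, 484, 460.0 and 456 in sh1-*TUG1* and 606, 595 and 592 in sh2-*TUG1*. The sh2-*TUG1* libraries lay above all others, and sh1-*TUG1* overlapped sh-Con. The log2(fold change) was 0.39 (SE 0.042, adjusted p = 8.54e-05) in sh2-*TUG1*, a rise of 30.8%, and 0.033 (SE 0.041, adjusted p = 0.609) in sh1-*TUG1*. *CYP51A1*, lanosterol 14-alpha-demethylase, was at 496, 534 and 539 CPM in sh-Con, 563, 545 and 531 in sh1-*TUG1* and 694, 706 and 655 in sh2-*TUG1*. Its pattern was that of *SQLE*, with a log2(fold change) of 0.39 (SE 0.051, adjusted p = 0.000303) in sh2-*TUG1* and 0.061 (SE 0.046, adjusted p = 0.374) in sh1-*TUG1*. *CYP51A1* has 3 annotated pseudogene copies. *SC5D*, sterol C5-desaturase, acts near the end of the route (ENSG00000109929; chr11:121292453-121308694). It was at 215, 214 and 198 CPM in sh-Con, 201, 197 and 188 in sh1-*TUG1* and 284, 298 and 299 in sh2-*TUG1*. The sh2-*TUG1* libraries were above all others, and the sh1-*TUG1* libraries overlapped the low end of sh-Con. *SC5D* rose by 40.2% in sh2-*TUG1*, with a log2(fold change) of 0.49 (SE 0.050, adjusted p = 6.38e-05), and in sh1-*TUG1* it was −0.10 (SE 0.048, adjusted p = 0.160).

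*TM7SF2* was the exception to the direction of the group. It encodes one of the sterol C14-reductases (ENSG00000149809; chr11:65111845-65116384) and was at 93.4, 81.5 and 81.5 CPM in sh-Con, 74.3, 76.6 and 74.6 in sh1-*TUG1* and 52.7, 54.6 and 54.9 in sh2-*TUG1*. The groups did not overlap, and sh1-*TUG1* lay between the others. *TM7SF2* fell by 36.8% in sh2-*TUG1*, with a log2(fold change) of −0.66 (SE 0.065, adjusted p = 5.36e-05). In sh1-*TUG1* it was −0.19 (SE 0.061, adjusted p = 0.0521), called in DESeq2, in the fit of all 9 libraries and without sh-Con replicate 2 (−0.22). *TM7SF2* overlaps *VPS51* on the same strand, where reads cannot be assigned by strand. *VPS51* rose in both lines, with a log2(fold change) of 0.24 (SE 0.048, adjusted p = 0.00589) in sh1-*TUG1* and 0.35 (SE 0.061, adjusted p = 0.00137) in sh2-*TUG1*, opposite to *TM7SF2*. The other C14-reductase gene was outside the 32.

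*LSS*, which closes squalene epoxide to lanosterol, rose in sh1-*TUG1* (log2 change 0.14, SE 0.039, adjusted p = 0.0289) and in sh2-*TUG1* (log2 change 0.24, SE 0.048, adjusted p = 0.00291). *HSD17B7*, a 3-ketosteroid reductase of the route, also rose in sh1-*TUG1* (log2 change 0.18, SE 0.057, adjusted p = 0.0416) and in sh2-*TUG1* (log2 change 0.25, SE 0.063, adjusted p = 0.00978), and it has 2 annotated pseudogene copies. In sh1-*TUG1* both calls were lost when any 1 library other than sh-Con replicate 1 was left out (0.11 to 0.16 for *LSS* and 0.14 to 0.21 for *HSD17B7* over all alternatives). A block for replicate number lost them as well. *NSDHL*, which removes carbon at sterol C4, rose in sh2-*TUG1* (log2 change 0.29, SE 0.061, adjusted p = 0.00404), with 73.4 ± 5.12 CPM in sh-Con and 90.1 ± 2.56 in sh2-*TUG1*. In sh1-*TUG1* it was at 73.6 ± 5.05 CPM and not called (log2 change 0.0038). *EBP*, the sterol isomerase, rose in sh1-*TUG1* (log2 change 0.26, SE 0.058, adjusted p = 0.00954) and was not called in sh2-*TUG1* (log2 change 0.088). *DHCR7*, which catalyses a last reduction to cholesterol, fell in sh1-*TUG1* (log2 change −0.13, SE 0.041, adjusted p = 0.0419). That call was lost when any 1 library other than sh-Con replicate 1 was left out (−0.15 to −0.10 over all alternatives). It was also lost with library totals alone and with the block for replicate number. In sh2-*TUG1* *DHCR7* was not called (log2 change 0.10), but without sh-Con replicate 1 it was (0.13). *FDFT1*, squalene synthase, and *MSMO1*, sterol C4-methyl oxidase, were called in neither line. The 95% interval for *FDFT1* was −0.10 to 0.083 in sh1-*TUG1* and −0.14 to 0.050 in sh2-*TUG1*. *MSMO1* was at 315, 424 and 396 CPM in sh-Con, where replicate 1 stood far below the others, and without that library the log2(fold change) in sh1-*TUG1* dropped below 0, from 0.056 to −0.064, as did that in sh2-*TUG1*, from 0.11 to −0.0049.

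**Figure D2:**
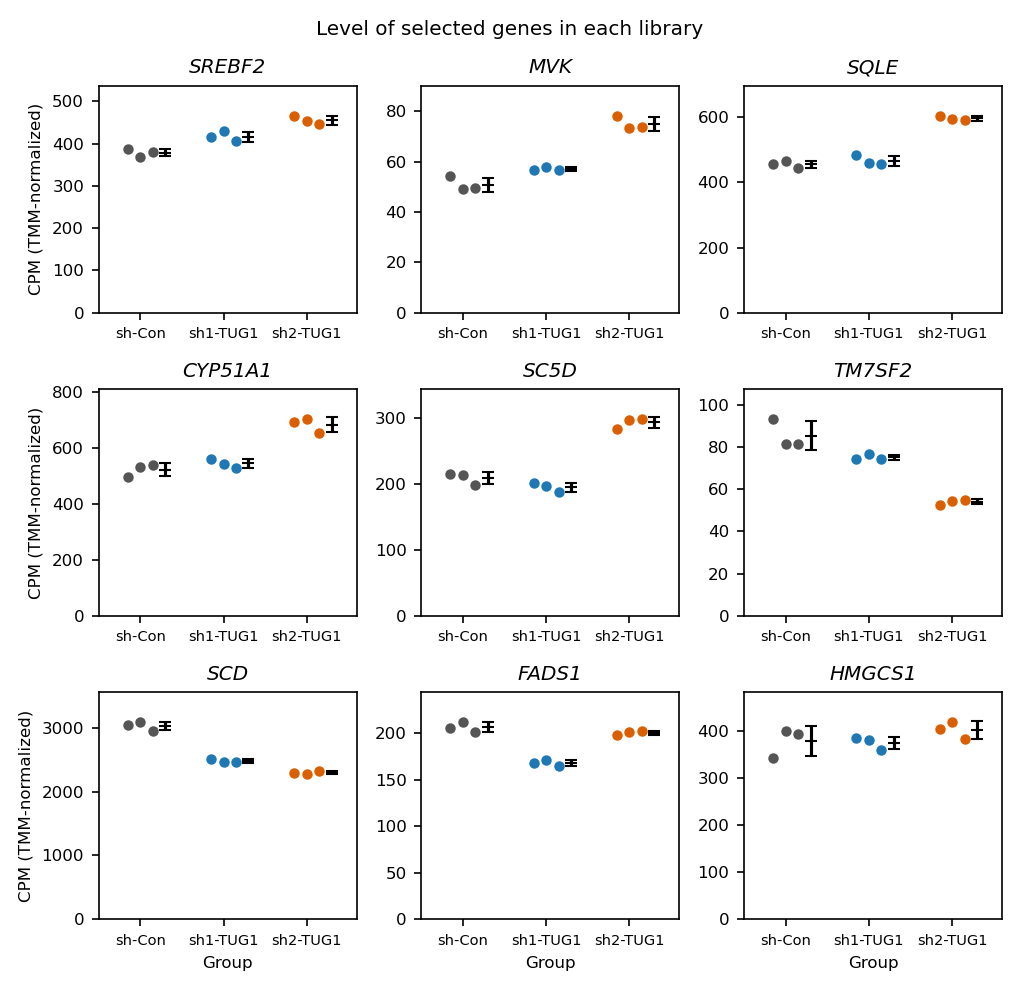
Level of 9 genes (CPM, y axis from 0) in each library, with points for the 3 libraries of each group and bars for the mean ± SD. The sh2-*TUG1* points stand above all others for *MVK*, *SQLE*, *CYP51A1* and *SC5D* and below all others for *TM7SF2* and *SCD*, *FADS1* is low in sh1-*TUG1* alone of the 3 groups, and the groups overlap for *HMGCS1*.

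Of the 9 enzymes of fatty acid synthesis, 0 were called higher than in sh-Con in either line. In sh1-*TUG1* 4 were lower (44.4%, against 12.3% of all genes), and in sh2-*TUG1* 2 were (22.2%, against 21.9%). *SCD* introduces the double bond that turns stearate into oleate (ENSG00000099194; chr10:100347124-100364834). It was at 3043, 3091 and 2954 CPM in sh-Con, 2517, 2466 and 2462 in sh1-*TUG1* and 2293, 2283 and 2325 in sh2-*TUG1*. The groups did not overlap, with sh-Con highest and sh2-*TUG1* lowest. *SCD* fell by 18.1% in sh1-*TUG1*, with a log2(fold change) of −0.29 (SE 0.034, adjusted p = 0.000325), and by 24.2% in sh2-*TUG1*, with −0.40 (SE 0.038, adjusted p = 4.52e-05). *FADS1*, the delta-5 desaturase of polyunsaturated fatty acids, was at 206, 212 and 202 CPM in sh-Con, 168, 172 and 165 in sh1-*TUG1* and 198, 201 and 202 in sh2-*TUG1*. It fell in sh1-*TUG1* (log2 change −0.30, SE 0.042, adjusted p = 0.000838), where all libraries lay below the others, and sh2-*TUG1* overlapped sh-Con (log2 change −0.046, SE 0.044, adjusted p = 0.425). *FADS2*, the delta-6 desaturase, fell in sh1-*TUG1* (log2 change −0.21, SE 0.064, adjusted p = 0.0371) and was not called in sh2-*TUG1* (log2 change −0.10). Its call was lost without any 1 of the sh1-*TUG1* libraries (−0.22 to −0.21), and without sh-Con replicate 1, the highest control, the log2(fold change) was −0.14. With library totals alone the call was lost as well. *FADS1* and *FADS2* overlap each other on opposite strands, and *FADS2* overlaps *FEN1* on the same strand. The change of *FEN1* on the log2 scale was 0.14 (SE 0.10, adjusted p = 0.332) in sh1-*TUG1*, and 0.23 (SE 0.075, adjusted p = 0.0348) was found in sh2-*TUG1*, where *FEN1* was called.

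*FASN*, the fatty acid synthase, was at 1130.3, 998 and 1059 CPM in sh-Con, 1106, 1114 and 1112 in sh1-*TUG1* and 1130.4, 1096 and 1096 in sh2-*TUG1*. All groups overlapped and the controls spread the most, and the 95% interval of the log2(fold change) was −0.041 to 0.17 in sh1-*TUG1* and −0.056 to 0.17 in sh2-*TUG1*. Without sh-Con replicate 1 *FASN* was called higher in sh1-*TUG1* (0.10). *ACACA*, acetyl-CoA carboxylase, which commits acetyl-CoA to fatty acids, was called in neither line, with intervals of −0.041 to 0.15 and −0.11 to 0.094. *ACLY*, which makes cytosolic acetyl-CoA from citrate and so feeds both routes, fell in sh2-*TUG1* (log2 change −0.14, SE 0.041, adjusted p = 0.0204) from 475 ± 9.50 to 432 ± 2.92 CPM. That call was lost without sh-Con replicate 3 or sh2-*TUG1* replicate 1 or 2, and with the block for replicate number (−0.18 to −0.13 over all alternatives). In sh1-*TUG1* *ACLY* was at 447 ± 5.14 CPM and not called (log2 change −0.089). *ACSS2*, which makes acetyl-CoA from acetate, was called in neither line (log2 change 0.016 and −0.086). *ELOVL6*, which elongates palmitate, fell in sh1-*TUG1* (log2 change −0.20, SE 0.056, adjusted p = 0.0296). This call was lost without sh-Con replicate 2 or 3 or sh1-*TUG1* replicate 1 or 2 (−0.23 to −0.17 over all alternatives). It was also lost with library totals alone and with the block for replicate number. In sh2-*TUG1* *ELOVL6* was not called (log2 change −0.15), but was without sh2-*TUG1* replicate 2 (−0.22). *ELOVL5*, an elongase of polyunsaturated fatty acids, was called in neither line (log2 change −0.022 and −0.0077).

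**Figure D3:**
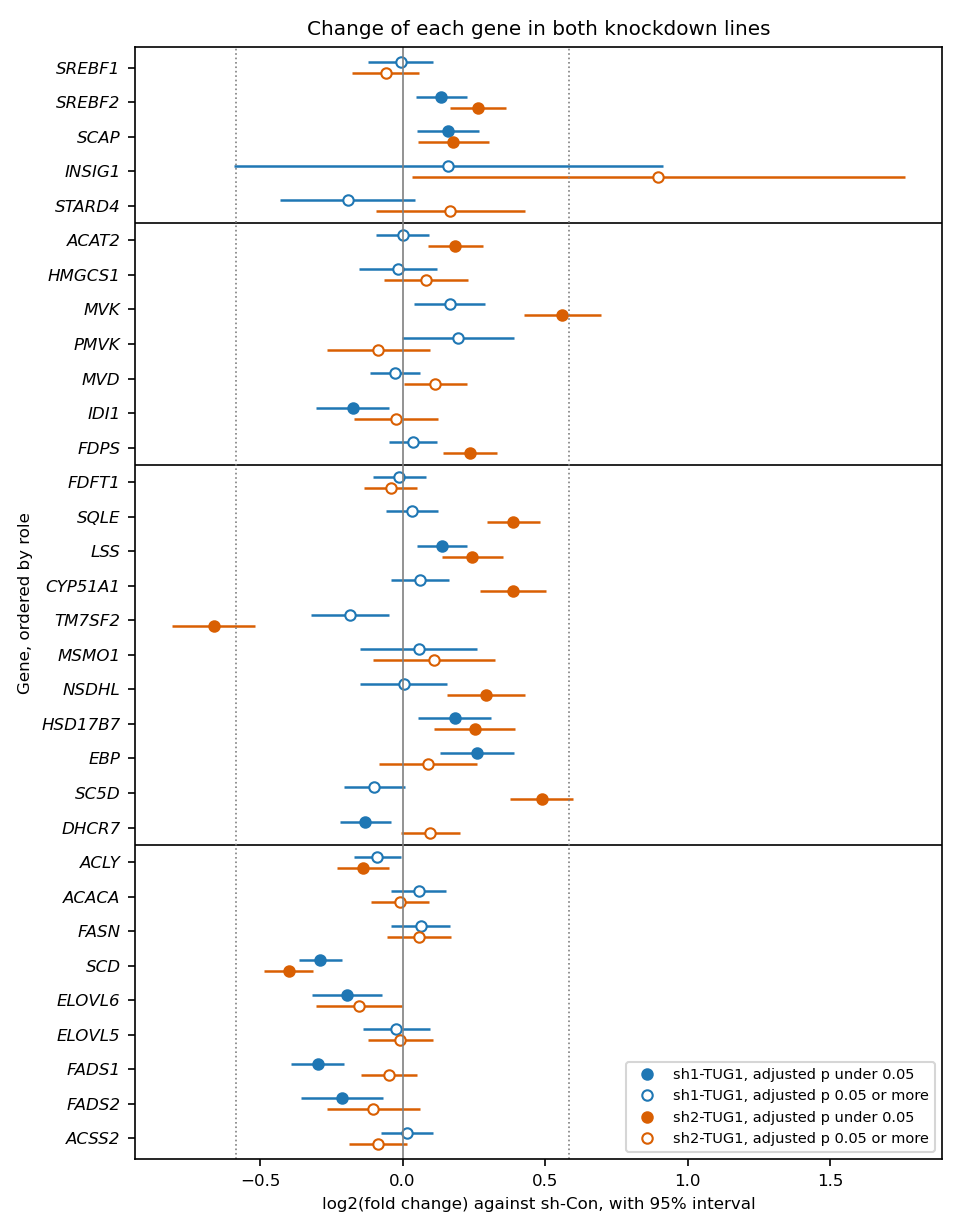
log2(fold change) against sh-Con (x axis) of the 32 genes by role (y axis), sh1-*TUG1* in blue and sh2-*TUG1* in orange, with 95% intervals and filled points for an adjusted p under 0.05. Dotted lines mark a fold change of 1.5. *TM7SF2* in sh2-*TUG1* is the one filled point beyond a dotted line, and both lines share the same 3 control libraries.

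Both knockdown lines were compared directly in a fit of all 9 libraries, because a call in one line alone does not show that the lines differ. In sh2-*TUG1* against sh1-*TUG1*, 12 of the 32 genes were higher (37.5%, against 21% of all genes) and 3 were lower (9.38%, against 21.7%). Called in either direction were 46.9% of the 32 and 42.7% of all genes. With scaling by library totals alone the counts were 10 and 7, and the shares of all genes under it were not computed. As DEGs 1 was higher, *SC5D* (2.56% of all genes were), and 0 were lower (8.04%). Of the 18 cholesterol enzymes 9 were higher (50%, against 21% of all genes) and 2 lower (11.1%, against 21.7%). *SC5D* had the largest difference among the called genes, with a log2(fold change) of 0.59 (SE 0.046, adjusted p = 1.97e-06), a level 50.5% higher in sh2-*TUG1*. It stood at the edge of the 1.5-fold limit and passed below it without sh1-*TUG1* replicate 3 (0.56), without sh2-*TUG1* replicate 2 or 3 (0.58 and 0.57) and with library totals alone (0.53). *MVK* (log2 change 0.40, SE 0.054, adjusted p = 0.000129), *SQLE* (log2 change 0.36, SE 0.038, adjusted p = 2.03e-05) and *CYP51A1* (log2 change 0.33, SE 0.045, adjusted p = 0.000147) followed, and *TM7SF2* was lower (log2 change −0.48, SE 0.059, adjusted p = 6.37e-05). *FADS1* was the one fatty acid enzyme that was higher in sh2-*TUG1* (log2 change 0.25, SE 0.038, adjusted p = 0.000269), and *SCD* was the one that was lower (log2 change −0.11, SE 0.032, adjusted p = 0.0174). The difference of *SCAP* was 0.022, with a 95% interval of −0.086 to 0.13, and that of *FASN* was −0.0044, with −0.10 to 0.092. For *EBP* the lines were not called different (log2 change −0.17, SE 0.070, adjusted p = 0.0651), although it was called against sh-Con in sh1-*TUG1* alone.

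The neighbouring pathways showed both directions. Over all genes, 12.5% were called higher and 12.3% lower in sh1-*TUG1*, and 21.6% higher and 21.9% lower in sh2-*TUG1*, and the shares of each list below are to be read against these. Of 13 further genes of sterol regulation, 4 rose (30.8%) and 3 fell (23.1%) in sh1-*TUG1*, and 4 rose (30.8%) and 4 fell (30.8%) in sh2-*TUG1*. Of 6 further enzymes of cholesterol synthesis, 1 rose (16.7%) and 1 fell (16.7%) in sh1-*TUG1*, and 1 rose (16.7%) and 2 fell (33.3%) in sh2-*TUG1*. Of 24 genes of the isoprenoid branches, which draw on the mevalonate pathway for dolichol, ubiquinone and prenylated proteins, 4 rose (16.7%) and 3 fell (12.5%) in sh1-*TUG1*, and 6 rose (25%) and 4 fell (16.7%) in sh2-*TUG1*. *SRD5A3*, which makes dolichol, was at 19.4, 17.4 and 17.0 CPM in sh-Con and 12.7, 11.2 and 11.2 CPM in sh2-*TUG1*, and fell there (log2 change −0.62, SE 0.093, adjusted p = 0.000641). In sh1-*TUG1* it was not called (log2 change −0.16).

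Of 22 genes of sterol uptake, esterification, transport and efflux, 4 rose (18.2%) and 6 fell (27.3%) in sh1-*TUG1*, and 5 rose (22.7%) and 8 fell (36.4%) in sh2-*TUG1*. *SCARB1*, the receptor for high-density lipoprotein, was at 283, 259.9 and 253 CPM in sh-Con, 216, 214 and 212 in sh1-*TUG1* and 163, 159 and 169 in sh2-*TUG1*. The groups did not overlap, and *SCARB1* fell in sh1-*TUG1* (log2 change −0.31, SE 0.047, adjusted p = 0.00142) and in sh2-*TUG1* (log2 change −0.70, SE 0.054, adjusted p = 1.07e-05). *SOAT2*, which esterifies cholesterol for storage and secretion, was at 56.8, 56.8 and 61.9 CPM in sh-Con, 70.9, 69.2 and 69.9 in sh1-*TUG1* and 33.7, 34.3 and 37.0 in sh2-*TUG1*. It moved in opposite directions, rising in sh1-*TUG1* (log2 change 0.26, SE 0.055, adjusted p = 0.00839) and falling in sh2-*TUG1* (log2 change −0.74, SE 0.064, adjusted p = 2.28e-05).

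Of the further genes of fatty acid supply, elongation and activation, 6 of 34 rose (17.6%) and 4 fell (11.8%) in sh1-*TUG1*, and 10 of 33 rose (30.3%) and 8 fell (24.2%) in sh2-*TUG1*. *ACSS1*, the mitochondrial acetyl-CoA synthetase, was at 28.4, 28.3 and 28.5 CPM in sh-Con and 49.1, 51.5 and 49.1 CPM in sh1-*TUG1*, and rose there (log2 change 0.81, SE 0.053, adjusted p = 8.93e-06). In sh2-*TUG1* the rise was smaller (log2 change 0.22, SE 0.063, adjusted p = 0.0198). *ACSL1*, a major acyl-CoA synthetase of liver, was at 156, 170.1 and 172 CPM in sh-Con and 272, 284 and 255 CPM in sh2-*TUG1*, and rose there (log2 change 0.70, SE 0.058, adjusted p = 1.82e-05), whereas in sh1-*TUG1* it was not called (log2 change 0.12). *SLC27A5*, an acyl-CoA synthetase of bile acids and very long fatty acids, was at 7.53, 6.12 and 6.72 CPM in sh-Con and 3.60, 3.95 and 3.63 CPM in sh2-*TUG1*. It fell in sh2-*TUG1* (log2 change −0.87, SE 0.15, adjusted p = 0.00156) and was not called in sh1-*TUG1* (log2 change 0.27).

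**Figure D4:**
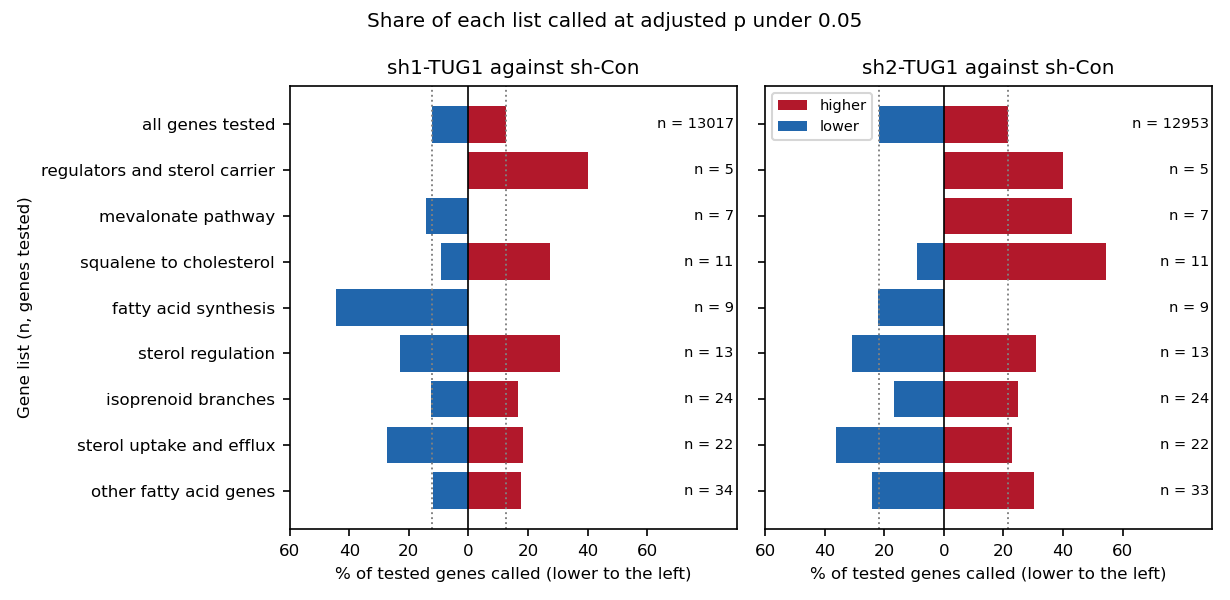
Share of each list called higher (red, to the right) or lower (blue, to the left) at an adjusted p under 0.05, in % of the genes tested (n), for each line against sh-Con. Dotted lines mark the shares of all genes tested, 12.5% and 12.3% in sh1-*TUG1* and 21.6% and 21.9% in sh2-*TUG1*. In sh2-*TUG1* the bars of all lists shown except fatty acid synthesis reach beyond the dotted line on the higher side. They run from 22.7% for sterol uptake and efflux, near the line, to 54.5% for squalene to cholesterol, and the fatty acid enzymes have no bar there. On the lower side, sterol uptake and efflux (36.4%), sterol regulation (30.8%), other fatty acid genes (24.2%) and fatty acid synthesis (22.2%) also reach beyond the line. The list of 6 further enzymes of cholesterol synthesis is not shown. In sh2-*TUG1* 16.7% of it was called higher, short of the line, and 33.3% lower, beyond it.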

How the data were processed

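Read counts per gene, which carry no normalization, came from 2 tables deposited by the authors, 1 for each knockdown line with its 3 controls. The tables also hold FPKM values made by the authors, which were not used. The adjusted p-values (false discovery rates) and log2 fold changes in the deposited tables are results of the authors' own comparison, and they were neither used nor compared. The submitters' processing notes name HISAT2, StringTie and GRCh38. Groups came from the sample labels.

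The members and gene lists were chosen with earlier results of these data known. Counts were analysed in R 4.3.3 with edgeR 4.0.16 (limma 3.58.1), using TMM normalization, filterByExpr (0 genes removed), a quasi-likelihood test over all genes and Benjamini–Hochberg adjustment. Each line was tested against sh-Con in 6 libraries, and the lines against each other in all 9. CPM values share 1 scale over the 9 libraries. Intervals of 95% are for 1 gene and not adjusted. Alternatives were RLE size factors, library totals alone, no filter, at least 1 CPM in 3 libraries, DESeq2 1.42.0, other sets of libraries in the fit, a block for replicate number, glmTreat against a fold change of 1.5, and leaving out each library.

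Per-library values are given for *SREBF1*, *SREBF2*, *SCAP*, *INSIG1*, *HMGCS1*, *SQLE*, *FASN*, *SCD* and DEGs of any comparison, and of other lists at most 3 DEGs are named. Positions are from GENCODE 29. Some genes of the pathway are counted in the lists but not reported here. On simulated counts with known changes in sh2-*TUG1* against sh-Con (12953 genes), edgeR recovered 91% of 2-fold and 78% of 1.5-fold changes with 4 false calls where the spread followed the trend, and 89% and 76% with 19 false calls where it varied by gene. For sh1-*TUG1* against sh-Con (13017 genes) it recovered 88% and 74% with 6 false calls, and 89% and 77% with 22. For sh2-*TUG1* against sh1-*TUG1* (12854 genes) it recovered 88% and 78% with 9 false calls, and 90% and 76% with 13. Each simulation changed 100 genes at each fold, far fewer than were called in the data, and held no changes under 1.5-fold. These rates therefore do not give the recovery of the smaller changes reported above. With 33054291 to 39393293 counts per library, libraries of a group still differed by more than counting error (chi-square per degree of freedom 6.41 to 25.8).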

Additional observations from a re-analysis of the deposited data

Results flagged for a closer look

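For 15 of the 32 genes the change against sh-Con differed between the knockdown lines, by edgeR's test of sh2-*TUG1* against sh1-*TUG1* in the fit of 9 libraries (adjusted p under 0.05). This is 46.9% of the 32, near the 42.7% of all genes called between the lines. Among the regulators, the difference in log2 fold change was 0.13 for *SREBF2* and 0.36 for *STARD4*. Among the mevalonate enzymes it was 0.19 for *ACAT2*, 0.40 for *MVK*, −0.28 for *PMVK*, 0.14 for *MVD* and 0.20 for *FDPS*. Between squalene and cholesterol it was 0.36 for *SQLE*, 0.33 for *CYP51A1*, −0.48 for *TM7SF2*, 0.29 for *NSDHL*, 0.59 for *SC5D* and 0.23 for *DHCR7*. For the fatty acid enzymes it was −0.11 for *SCD* and 0.25 for *FADS1*. The calls of *ACAT2*, *MVK*, *FDPS*, *SQLE*, *CYP51A1*, *TM7SF2*, *NSDHL*, *SC5D*, *DHCR7* and *FADS1* held under every other setting with a test for any difference and without any 1 library. The other 5 were lost in part, *SREBF2* with library totals alone and without sh1-*TUG1* replicate 1 or 3 or sh2-*TUG1* replicate 1, *STARD4* without sh1-*TUG1* replicate 2 or sh2-*TUG1* replicate 1 or 2, *PMVK* without sh1-*TUG1* replicate 1 or 2 or sh2-*TUG1* replicate 1, *MVD* with library totals alone and without replicate 1 or 2 of either line, and *SCD* without sh1-*TUG1* replicate 1 or sh2-*TUG1* replicate 1 or 2. Over their alternatives *SREBF2* ranged from 0.066 to 0.15, *STARD4* from 0.30 to 0.43, *PMVK* from −0.35 to −0.23, *MVD* from 0.080 to 0.18 and *SCD* from −0.17 to −0.099.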

How the results depend on the processing

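A called log2 fold change reversed in 0 cases. Of the calls, 3 of 11 in sh1-*TUG1* (*EBP*, *SCD* and *FADS1*), 12 of 14 in sh2-*TUG1* (all but *SCAP* and *ACLY*) and 10 of 15 between the lines held under every alternative that tests for any difference. Leaving out 1 library gave 1 to 7 genes higher and 2 to 7 lower in sh1-*TUG1*, 10 to 12 higher and 2 to 3 lower in sh2-*TUG1*, and 10 to 14 higher and 1 to 3 lower between the lines. With a fold change over 1.5 the counts were 0 and 0 (sh1-*TUG1*), 0 and 1 (sh2-*TUG1*), and 1 and 0 (between the lines), and glmTreat against a fold change of 1.5 gave 0 in every case. Library totals alone gave 2 lower (sh1-*TUG1*), 5 (sh2-*TUG1*) and 7 (between the lines), and DESeq2 gave 5 lower between the lines. With the replicate block, sh1-*TUG1* kept 1 gene called higher and 4 called lower, and sh2-*TUG1* had 11 and 2. Apart from the fold change over 1.5, the shares of all genes under these alternatives were not computed. Same-numbered libraries of different groups had correlations of −0.33 to 0.011 (others −0.088 to 0.20), so the numbers did not pair the libraries. No library correlated best with the library of its own number in another group.

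Some uncalled log2 fold changes changed sign. *ACAT2* in sh1-*TUG1* was −0.0021 with RLE size factors and with DESeq2. With library totals alone, *SREBF1* was 0.021, *HMGCS1* 0.0099, *FDFT1* 0.016 and *ELOVL5* 0.0043 in sh1-*TUG1*, and between the lines *SCAP* was −0.042, *MSMO1* −0.0082, *ELOVL6* −0.020 and *ELOVL5* −0.048. Without 1 library, the ranges in sh1-*TUG1* were −0.037 to 0.030 for *SREBF1*, −0.020 to 0.019 for *ACAT2*, −0.064 to 0.14 for *MSMO1*, −0.088 to 0.017 for *HMGCS1*, −0.066 to 0.0069 for *ELOVL5*, −0.041 to 0.54 for *INSIG1*, −0.053 to 0.058 for *NSDHL* and −0.042 to 0.0048 for *FDFT1*. In sh2-*TUG1* they were −0.0049 to 0.20 for *MSMO1*, −0.078 to 0.027 for *IDI1*, −0.046 to 0.025 for *ELOVL5* and −0.024 to 0.0035 for *ACACA*, and between the lines −0.046 to 0.0023 for *FDFT1*, −0.013 to 0.052 for *ELOVL5*, −0.0099 to 0.053 for *SCAP*, −0.019 to 0.0031 for *FASN* and −0.023 to 0.080 for *ELOVL6*. The fewer libraries in these fits also leave a less precise estimate of the spread. Counts were lowest for *INSIG1* (29 to 113 in a library), where the precision was least.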
